A study of Mus musculus with 8 samples.

Results

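Genes that mark the endothelial cells of mouse liver were followed in bulk RNA from livers with and without virally delivered ATF3, a stress-induced transcription factor. The set holds 34 of the 24972 genes listed, chosen by name as known genes of liver endothelium. All 34 reached the required 10 normalized counts in at least 4 libraries, and all 34 did so in each of the 8 libraries, so none entered only through the group where it was high. The C57BL/6J mice of both groups were injected intravenously at 10 weeks with an adeno-associated virus, and liver was taken 8 weeks later, at 18 weeks. One group received AAV8-ALB-Null (Null, 4 libraries) and the other AAV8-ALB-ATF3 (ATF3, 4 libraries), so both carried a virus. ALB was read as the albumin promoter, which is active in hepatocytes. The design text states 8 mice per group. Whether a library is 1 mouse or a pool is not given in the sources used here, so a p-value here speaks only for the spread among these 8 libraries, part of which may be technical.

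The liver sinusoid is lined by a specialised endothelium with open pores and no continuous basement membrane. Its cells clear waste from blood through scavenger receptors, make clotting factor VIII, and send signals to hepatocytes. Among these angiocrine signals, Wnt ligands and R-spondin 3 from endothelium near the central vein maintain the pericentral hepatocyte programme, and BMP2 and BMP6 drive hepcidin, the hormone of iron balance. Endothelial growth and junctions are governed by VEGF receptors and by the angiopoietin receptor TIE2.

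The deposited normalized counts summed to between 23920000 and 28450000 per library. Depth, estimated from the commonest small value in a library, was about 17200000 to 48500000 reads. Atf3 held 20.3 to 24.5 normalized counts in Null and 5611 to 7053 in ATF3, which follows the labels, and delivered and endogenous transcripts cannot be told apart. The albumin gene Alb held 1260330 to 2582250 normalized counts, as in liver. In bulk tissue, fewer endothelial cells and less RNA per endothelial cell cannot be told apart.

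To show the DNA in front of these genes, 250 bases before the RefSeq start site are given for 3 receptor genes in GRCm38.p6, the same genome build as mm10. Flt1 is shown because its window holds a full cAMP response element, the kind of site that ATF and CREB proteins bind. Tek is shown because its Null and ATF3 libraries did not overlap, and Eng because it was the other receptor with an unadjusted p under 0.05. Capitals mark the cAMP response element TGACGTCA, the AP-1 site TGANTCA and the ETS-type core AGGAAG, each on either strand.

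Flt1, chr5:147726012-147726261, minus strand: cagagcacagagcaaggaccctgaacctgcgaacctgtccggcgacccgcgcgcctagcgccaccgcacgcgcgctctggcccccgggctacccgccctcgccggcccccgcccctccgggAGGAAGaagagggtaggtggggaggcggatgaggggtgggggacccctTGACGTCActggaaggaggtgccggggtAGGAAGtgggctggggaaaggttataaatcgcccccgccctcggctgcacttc
Tek, chr4:94739039-94739288, plus strand: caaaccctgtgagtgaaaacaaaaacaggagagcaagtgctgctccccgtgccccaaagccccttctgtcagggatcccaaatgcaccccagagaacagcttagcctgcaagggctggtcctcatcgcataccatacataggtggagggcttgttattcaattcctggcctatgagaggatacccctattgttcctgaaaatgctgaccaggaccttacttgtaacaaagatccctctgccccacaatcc
Eng, chr2:32646345-32646594, plus strand: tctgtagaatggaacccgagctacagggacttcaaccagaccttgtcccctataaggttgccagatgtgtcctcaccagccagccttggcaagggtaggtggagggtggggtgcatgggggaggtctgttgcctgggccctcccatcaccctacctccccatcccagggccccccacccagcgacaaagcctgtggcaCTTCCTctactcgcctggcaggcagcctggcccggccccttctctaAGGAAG

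The promoter table matched 20 of the 34 genes, and Ptprb and Rspo3 were not among them. TGACGTCA was found in 1 of the 20 (Flt1, 81 bases before the start) and in 1.55% of all 32851 promoters in the table. Its first letters alone, TGACG, were found in 3 of 20 (Clec4g, Egfl7 and Flt1) and in 17.8% of all. TGANTCA was found in 0 of 20 and in 6.75% of all. AGGAAG was found in 11 of 20 and in 29.5% of all, and its longer form CAGGAAG, which contains it, in 5 of 20 and in 10.8% of all. ETS factors such as ERG and FLI1 are known regulators of endothelial genes, and the letters alone do not show a bound site.

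Levels between genes were compared per transcript length, as each gene's share of the summed TPM of the 34 genes within a library. Clec4g, a C-type lectin of sinusoidal endothelium, had the largest share, 10.6% ± 1.39 in Null against 10.7% ± 1.13 in ATF3 (SD, n = 4 in both groups). The water channel gene Aqp1, which cholangiocytes also express, came next with 9.39% ± 0.86 and 9.14% ± 0.84, and the Fc receptor gene Fcgr2b followed with 8.13% ± 0.69 and 8.77% ± 0.61 (SD, n = 4 in both groups). The angiocrine ligands lay in the lower part of the order. Bmp2 held 1.90%, Rspo3 0.95%, Wnt2 0.57%, Bmp6 0.50% and Wnt9b 0.072% of the sum in Null. The clotting gene Vwf, a marker of larger vessels, held 0.40% ± 0.14 in Null against 0.39% ± 0.045 in ATF3 (SD, n = 4 in both groups), far under the sinusoidal markers.

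**Figure D1:**
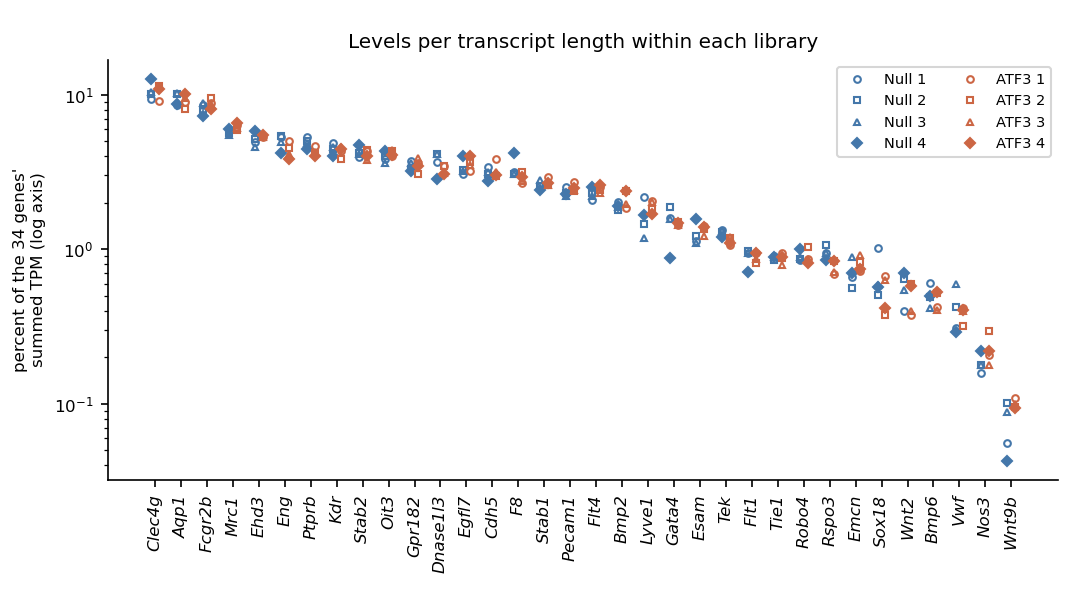
Share of each endothelial gene in the summed TPM of the 34 genes within a library, in percent on a log axis, ordered by the median over 8 libraries (blue Null, orange ATF3, filled symbols replicate 4). The order runs from Clec4g, at 10.6% in Null, to Wnt9b, at 0.072% in Null. The libraries of a gene lie close together beside this whole span, but many neighbouring genes overlap.

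Few of the endothelial genes passed the test between Null and ATF3. With limma, 2 of the 34 fell at an adjusted p under 0.05 (Ptprb and Rspo3) and 0 rose, or 5.88% of the set. Of all 13301 genes tested, 21.2% were called, 11.4% higher and 9.82% lower. At an unadjusted p under 0.05, 5 of the 34 were lower and 0 higher, against 16.3% and 17.6% of all genes tested. In either direction the count was 5 here, 2 without ATF3 4, and 3 without Null 1, ATF3 1 or ATF3 3. It was 6 without Null 4 or ATF3 2. With the deposited TPM it was 1, and there all 34 changes were above 0. Changes are log2 differences, ATF3 minus Null. No member reached 0.5 in either direction, whereas 22.0% of all tested genes did. The median change was -0.07 over the 34 genes and 0.01 over all tested genes, and the median absolute change was 0.10 and 0.24. The median of the 34 was nearer 0 without Null 1 (-0.029), Null 4 (-0.036) or ATF3 2 (-0.037). So it was with library weights (-0.037) and with upper quartile scaling (-0.035). It was farther from 0 without Null 3 (-0.080), with median of ratios scaling (-0.073) and with TPM rescaled that way (-0.071). Groups did not overlap for 3 of the 34 genes (Ptprb, Tek and Rspo3), all with ATF3 below, against 26.3% of all tested genes, 13.7% with ATF3 above and 12.6% with ATF3 below. The normalized counts of the 34 genes together were 37305 to 42195 per Null library and 36400.4 to 37232 per ATF3 library, which do not overlap. Divided by each library's column sum, the 2 groups overlapped. The direction below 0 was not kept with the deposited TPM. There the median of all tested genes was 0.68 and that of the 34 genes 0.72. In that TPM the gene Mir6236 held 89.4% of Null 1 and 0.308% to 37.0% of the other libraries. The median of ratios factor of the TPM was 0.152 in Null 1 and 1.08 to 1.63 in the others. What Null 1 did to these changes was not tested.

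A gene that misses the threshold may still differ, so the intervals matter. The 95% interval of the change lay within 1.5-fold either way for 27 of the 34 genes, against 47.1% of all tested genes. It lay within 2-fold for 33, against 78.2% of all. The gene with the widest interval was Sox18. The SE of the change had a median of 0.11 in the set and 0.15 over all genes tested, and the median mean level was 626 and 378 normalized counts.

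**Figure D2:**
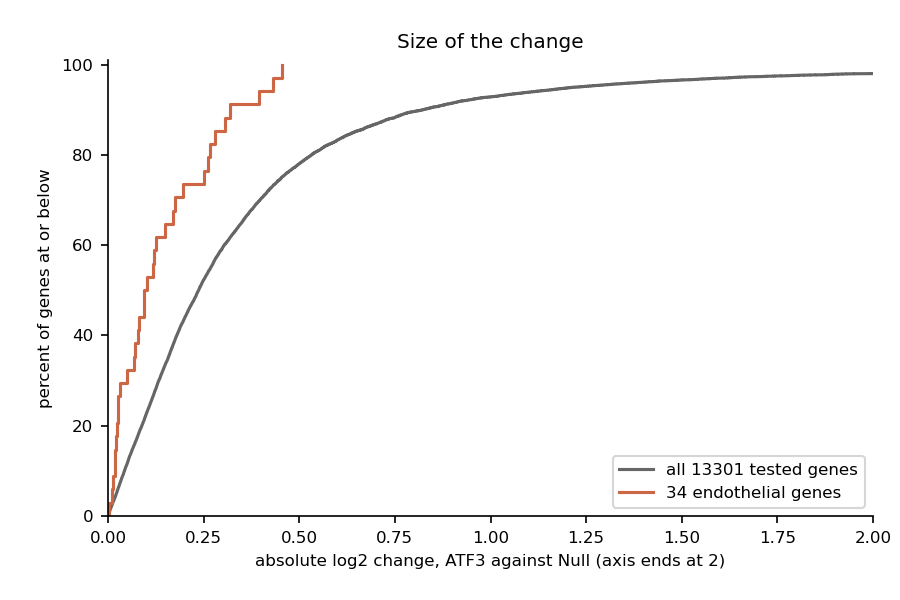
Cumulative share of genes (percent) by absolute log2 change between ATF3 and Null, for the 34 endothelial genes (orange) and all 13301 tested genes (grey). The endothelial curve reaches 100% at 0.45, and 22.0% of all tested genes lie at 0.5 or beyond.

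**Figure D3:**
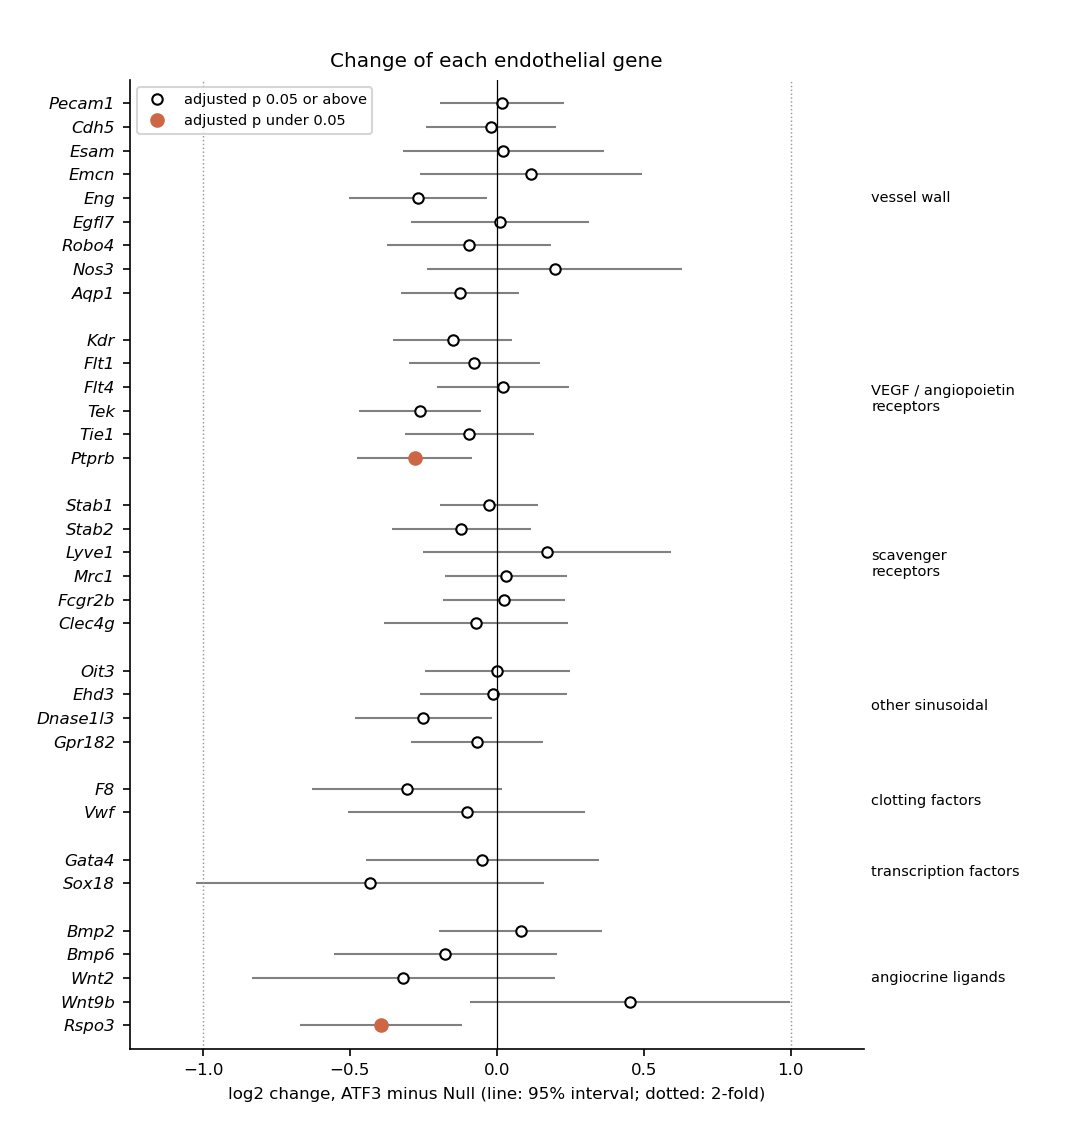
Log2 change of each endothelial gene, ATF3 minus Null (circles), with the 95% interval from limma (lines), ordered by role, with dotted lines at 2-fold. Filled circles mark Ptprb and Rspo3, the genes with an adjusted p under 0.05, and every interval except that of Sox18 stays inside the dotted lines.

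None of the 9 genes of the vessel wall passed. Pecam1, an adhesion molecule of endothelial junctions, held 850, 733, 681 and 810 normalized counts in the Null libraries, in order, against 811, 756, 767 and 770 in the ATF3 libraries. All ATF3 values lay inside the Null range, and the change was 0.02 (SE 0.09, 95% interval -0.19 to 0.23, adjusted p = 0.917). Cdh5, which encodes VE-cadherin, the adherens junction protein of endothelium, held 1428, 1203, 1215 and 1204 in the Null libraries, in order, against 1417, 1177, 1228 and 1167 in the ATF3 libraries. One library of each group, Null 1 and ATF3 1, stood above the rest, and the change was -0.02 (SE 0.10, 95% interval -0.24 to 0.20, adjusted p = 0.920).

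Eng encodes endoglin, a co-receptor for BMP9. It held 1973, 1891, 1679 and 1627 in the Null libraries, in order, against 1651, 1577, 1431 and 1302 in the ATF3 libraries. The ATF3 values were lower on the whole and met the Null range at ATF3 1, and the change of -0.27 (SE 0.11, 95% interval -0.50 to -0.03, adjusted p = 0.102) did not pass. Without Null 4 it passed, at -0.31 (adjusted p = 0.0448). The junction gene Esam, the sialomucin gene Emcn, the secreted factor gene Egfl7, the guidance receptor gene Robo4, the nitric oxide synthase gene Nos3 and Aqp1 had changes between -0.12 (Aqp1) and 0.20 (Nos3), and their groups overlapped. Of the exonic bases of Nos3, 25.2% overlap an antisense transcript, and counting by strand is not given in the sources used here, so its value is uncertain.

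Among receptors of VEGF and angiopoietin and their phosphatase, 1 of 6 genes passed. The change was below 0 in 5 of the 6, against 64.7% of the 34 genes and 49.2% of all tested genes. The 95% intervals of Kdr, Flt1 and Tie1 included 0. Ptprb encodes VE-PTP, the endothelial phosphatase that restrains TIE2 and VEGF receptor signalling (chromosome 10, 116275523 to 116389535, mm10). It held 6561, 5793, 5481 and 5710 normalized counts in the Null libraries, in order, against 5093, 4836, 4915 and 4525 in the ATF3 libraries. Every ATF3 library lay below every Null library, as for 12.6% of all tested genes. Ptprb fell by 0.28 (SE 0.09, 95% interval -0.48 to -0.08, adjusted p = 0.0468), to 0.824 of the Null level. The call was lost when any library other than Null 4 was left out (adjusted p from 0.0550 to 0.143), with a change between -0.31 and -0.23.

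Tek encodes TIE2, the receptor of the angiopoietins. It held 625, 570, 564 and 593 in the Null libraries, in order, against 445, 522, 524 and 473 in the ATF3 libraries. The groups did not overlap, but the change of -0.26 (SE 0.09, 95% interval -0.47 to -0.05, adjusted p = 0.0739) did not pass. Tie1, the related orphan receptor gene, held 381, 341, 343 and 395 in the Null libraries, in order, against 357, 349, 312 and 348 in the ATF3 libraries. These values overlapped, with a change of -0.09 (SE 0.10, adjusted p = 0.549).

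Kdr encodes VEGFR2, the main signalling receptor for VEGF-A. It held 2980, 2589, 2575 and 2564 in the Null libraries, in order, against 2340, 2207, 2620 and 2483 in the ATF3 libraries. Only ATF3 3 reached into the Null range, and the change was -0.15 (SE 0.09, 95% interval -0.35 to 0.05, adjusted p = 0.282). Flt1, the decoy receptor gene whose promoter holds the cAMP response element printed above, held 668, 653, 611 and 533 in the Null libraries, in order, against 597, 546, 570 and 618 in the ATF3 libraries. Its groups overlapped, at -0.08 (SE 0.10, 95% interval -0.30 to 0.15, adjusted p = 0.636). Flt4, the VEGF-C receptor gene, lay at 0.02 (SE 0.10, adjusted p = 0.910).

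**Figure D4:**
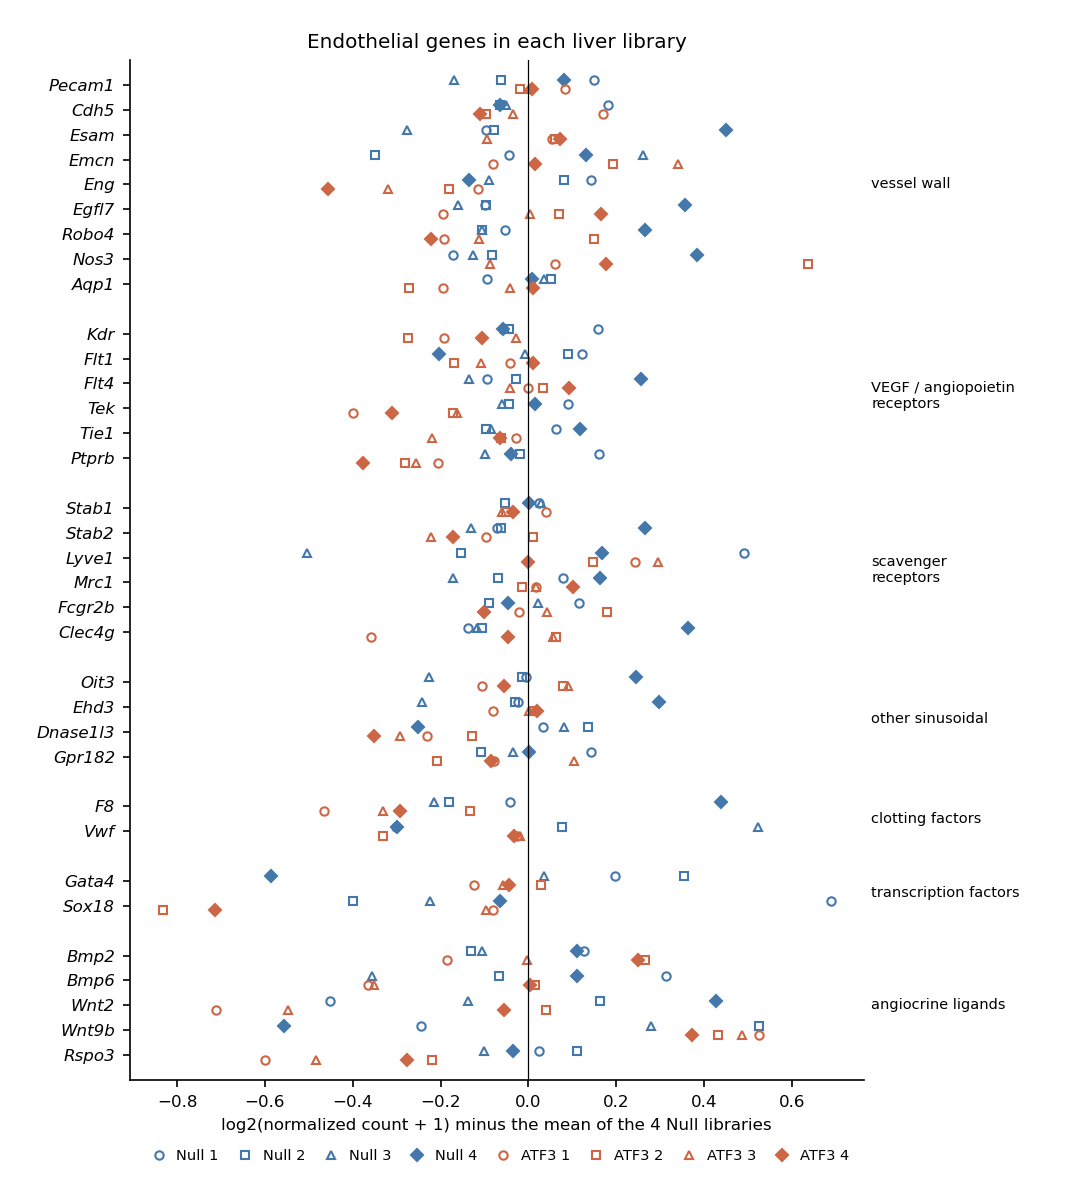
Deviation of each library from the mean of the 4 Null libraries, as log2(normalized count + 1), for the 34 endothelial genes by role (blue Null, orange ATF3, filled diamonds replicate 4). The groups separate for Ptprb, Tek and Rspo3, with ATF3 below Null, and Null 4 is the highest Null library for 13 genes.

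Scavenger receptors showed no call, with changes between -0.12 (Stab2) and 0.17 (Lyve1). Stab1 and Stab2 encode stabilins, which clear hyaluronan and other waste molecules from blood. Stab1 held 2200 to 2330 in Null and 2189 to 2348 in ATF3, a change of -0.03 (SE 0.07, 95% interval -0.19 to 0.14). Stab2 held 3473, 3497, 3332 and 4389 in the Null libraries, in order, against 3413, 3678, 3128 and 3240 in the ATF3 libraries, with Null 4 far above the rest and a change of -0.12 (SE 0.11, adjusted p = 0.466). Lyve1, a hyaluronan receptor gene also found in lymphatic vessels, was spread from 258 to 517 in Null and from 367 to 450 in ATF3, so the ATF3 values lay inside the Null range. The mannose receptor gene Mrc1 lay at 0.03 (SE 0.09), Fcgr2b at 0.03 (SE 0.09) and Clec4g at -0.07 (SE 0.14). Macrophages also express Mrc1, Stab1 and Fcgr2b, so these values are not of endothelium alone.

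Among the other sinusoidal genes, Oit3 and the endocytosis gene Ehd3 were at 0.0022 and -0.01 (SE 0.11 for both), and the chemokine-binding receptor gene Gpr182 at -0.07 (SE 0.10). Dnase1l3, which encodes a secreted DNA-degrading enzyme, held 1385, 1488, 1433 and 1138 in the Null libraries, in order, against 1154, 1239, 1106 and 1062 in the ATF3 libraries. Null 4 was low, at the level of the ATF3 libraries, while the other Null libraries lay above all of them. The change was -0.25 (SE 0.10, 95% interval -0.48 to -0.02, adjusted p = 0.123), and without Null 4 it was -0.33 and passed (adjusted p = 0.0141). It did not pass without any other library (adjusted p up to 0.278), and the change lay between -0.33 and -0.20 over all 8 omissions.

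F8, the gene of clotting factor VIII, held 2076, 1887, 1844 and 2896 in the Null libraries, in order, against 1548, 1951, 1700 and 1747 in the ATF3 libraries. Null 4 stood well above the others, and only ATF3 2 reached into the Null range. The change was -0.31 (SE 0.15, 95% interval -0.63 to 0.02, adjusted p = 0.171), and -0.16 without Null 4. Vwf, the gene of von Willebrand factor, which carries factor VIII in blood, lay at -0.10 (SE 0.18, adjusted p = 0.737).

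The transcription factor gene Gata4, needed for sinusoidal identity, held 574, 641, 514 and 333 in the Null libraries, in order, against 460, 511, 482 and 486 in the ATF3 libraries. Apart from the low Null 4, its Null libraries lay above the ATF3 libraries, and the change was -0.05 (SE 0.18, adjusted p = 0.876) with Null 4 and -0.24 (adjusted p = 0.0905) without it. Sox18, a regulator of vessel development, ranged from 76.8 to 164 in Null and from 56.6 to 95.9 in ATF3. Null 1 was the high value and the ranges overlapped. The change was -0.43 (SE 0.27, 95% interval -1.02 to 0.16, adjusted p = 0.290), and -0.20 without Null 1.

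Among the angiocrine ligands, Rspo3 was the 1 gene that passed. It encodes R-spondin 3, which amplifies Wnt signals by removing the ligases RNF43 and ZNRF3 from the cell surface (chromosome 10, 29452416 to 29535867, mm10). Rspo3 held 197, 209, 180 and 189 normalized counts in the Null libraries, in order, against 127, 166, 138 and 159 in the ATF3 libraries. Every ATF3 library lay below every Null library. Rspo3 fell by 0.40 (SE 0.12, 95% interval -0.67 to -0.12, adjusted p = 0.0458), to 0.760 of the Null level. The call held without Null 4 or ATF3 2 and was lost when any of the other libraries was left out (adjusted p from 0.0642 to 0.126), with a change between -0.45 and -0.33 over all 8 omissions. An antisense gene covers 13.1% of the exonic bases of Rspo3, and its reads cannot be told apart from those of Rspo3 if strand was not used. Without a filter on low values the calls of both genes were lost (adjusted p = 0.0581 for Ptprb and 0.0723 for Rspo3). They were also lost with upper quartile scaling (0.0631 and 0.0656), and that of Ptprb with robust eBayes (0.0552). With the deposited TPM the sign of both Ptprb (0.64) and Rspo3 (0.35) turned, each under the median of 0.68 that all tested genes then had.

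Wnt2 and Wnt9b, the Wnt ligand genes of pericentral endothelium, differed in sign and did not pass. Wnt2 held 80.7, 124, 100 and 149 in the Null libraries, in order, against 67.2, 114, 75.4 and 107 in the ATF3 libraries. The ranges overlapped, with a change of -0.32 (SE 0.23, 95% interval -0.84 to 0.20, adjusted p = 0.371). Wnt9b held 27.3, 47.3, 39.7 and 21.8 in the Null libraries, in order, against 47.3, 44.3, 46.0 and 42.5 in the ATF3 libraries. The ATF3 libraries lay together near the upper Null values, and the change was 0.45 (SE 0.24, 95% interval -0.09 to 0.998, adjusted p = 0.225). Wnt9b was the lowest gene of the set, at an estimated 13.9 to 96.0 reads per library.

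Bmp2 and Bmp6, the ligand genes for hepcidin control, overlapped between groups. Bmp2 held 689, 575, 586 and 680 in the Null libraries, in order, against 555, 758, 629 and 750 in the ATF3 libraries, a change of 0.08 (SE 0.12, 95% interval -0.20 to 0.36, adjusted p = 0.692). Both the lowest and the highest Bmp2 values were ATF3 libraries. Bmp6 held 183, 140, 114 and 158 in the Null libraries, in order, against 114, 148, 115 and 147 in the ATF3 libraries, a change of -0.17 (SE 0.17, 95% interval -0.55 to 0.20, adjusted p = 0.514).

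**Figure D5:**
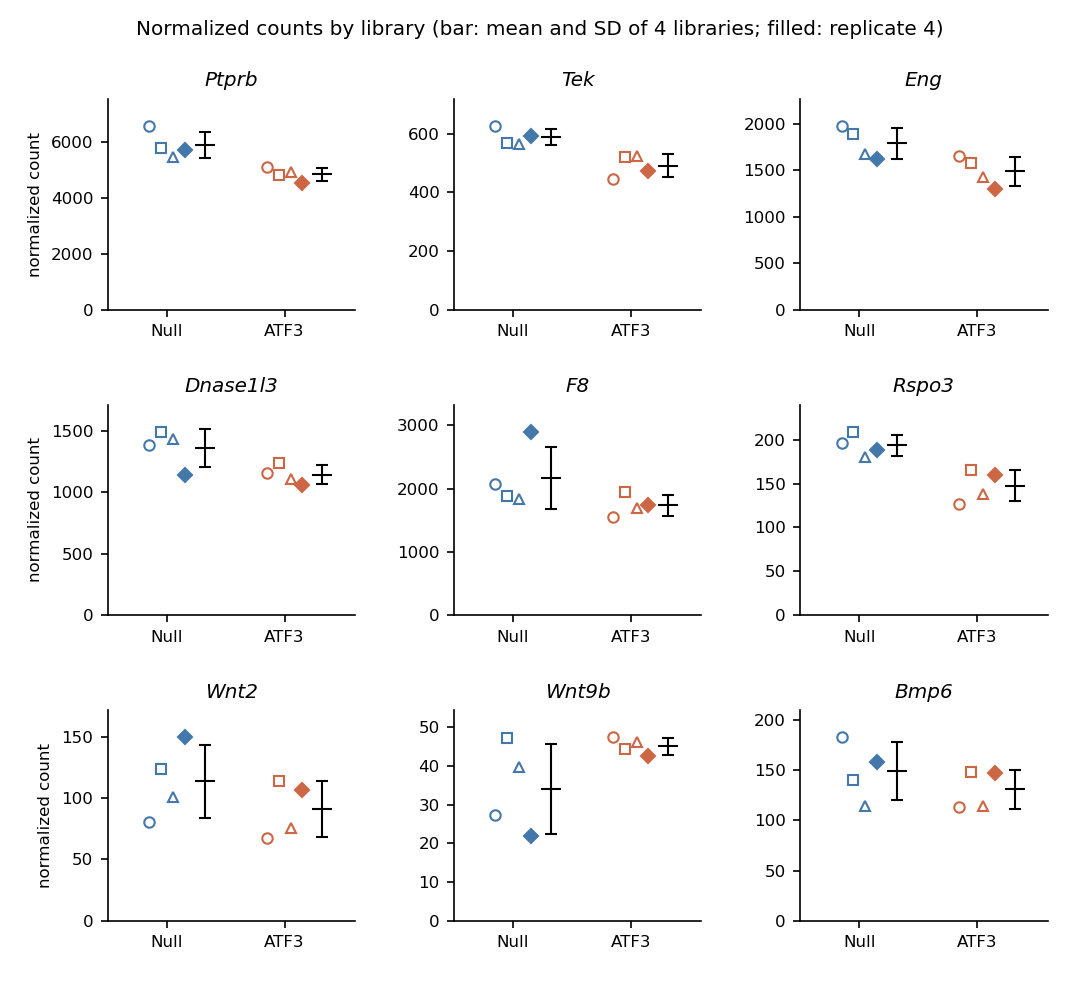
Normalized counts in each library (symbols; blue Null, orange ATF3, filled replicate 4) with mean and SD of 4 libraries (bars) for 9 endothelial genes, each axis starting at 0. Ptprb, Tek and Rspo3 show no overlap between groups, F8 and Dnase1l3 show Null 4 apart from the other Null libraries, and Wnt9b is spread in Null and narrow in ATF3.

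Libraries of 1 group also differed among themselves. The coefficient of variation of the 34 genes had a median of 13.0% in Null and 8.58% in ATF3, against 16.4% and 11.2% over all tested genes. Null 4 was the highest Null library for 13 of the 34 genes, against 37.2% of all tested genes, and Null 1 for another 13, against 25.1%. Null 3 was the lowest Null library for 15 of the 34, against 21.5%. The 13 genes highest in Null 4 were Tie1, Stab2, Clec4g, Oit3, Ehd3, F8, Egfl7, Esam, Flt4, Mrc1, Robo4, Nos3 and Wnt2. The median deviation of the 34 genes from their Null means was 0.10 in Null 4 and -0.10 in Null 3, a wider span than that of the ATF3 libraries, which ran from -0.09 to -0.0017. Without Null 4, the SD was larger in Null than in ATF3 for 18 of the 34 genes (52.9%, against 49.2% of all tested genes), and with it for 23 (67.6%, against 71.1%).

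Further endothelial genes, listed apart from the 34, were read beside them. Of 34 tested pan-endothelial genes, 1 rose and 1 fell, with a median change of 0.02. Clec14a, an endothelial surface lectin gene, fell by 0.46 (adjusted p = 0.0195), a call lost without ATF3 4 (adjusted p = 0.0679). The semaphorin and VEGF co-receptor gene Nrp1 rose by 0.53 (adjusted p = 0.0434), a call that held only without Null 3 or ATF3 2 and was lost without each other library (adjusted p from 0.0603 to 0.127). Of 12 tested genes of continuous capillaries, known to rise when sinusoids lose their pores, 0 rose and 0 fell (median -0.02). Of 28 other sinusoidal markers, 3 rose and 4 fell, or 25.0%, near the 21.2% called over all genes. Among these, Ctsl, a lysosomal protease gene, fell by 1.33 (adjusted p = 1.41e-05), and Cd4 and Adam23 fell by 1.33 and 0.39. Other liver cells also express Ctsl and Cd4. Cd4 was low, at 31.4 to 66.4 normalized counts in Null and 14.7 to 24.0 in ATF3. The Adam23 call was lost without ATF3 3 or ATF3 4 (adjusted p = 0.0658 and 0.0521).

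On the side of the partners, 0 of 18 tested VEGF, angiopoietin and BMP9 ligand, co-receptor and Notch genes rose and 3 fell, or 16.7%, against 21.2% called and 9.82% called lower over all genes. The Notch ligand gene Dll1 fell by 1.77 (adjusted p = 0.000478), the BMP receptor gene Bmpr2 by 0.40 (adjusted p = 0.0299) and Notch1 by 0.38 (adjusted p = 0.0317). Bmpr2 was lost without Null 1, ATF3 2, ATF3 3 or ATF3 4 (adjusted p from 0.0676 to 0.0946), and Notch1 without Null 1, Null 3, ATF3 2, ATF3 3 or ATF3 4 (adjusted p from 0.0544 to 0.103). Of 20 tested genes of BMP response and hepcidin control, the share called lay under the 21.2% called over all genes. It lay above the 9.82% called lower over all genes, as 0 rose and 3 fell. These were the transferrin receptor gene Tfr2 (-0.44, adjusted p = 0.00623), Smad4 (-0.42, adjusted p = 0.0169, lost without ATF3 3 or ATF3 4, at 0.0579 and 0.0613) and Bmpr2 again. Hamp, the hepcidin gene, was spread from 2776 to 8187 in Null and from 2276 to 4337 in ATF3, with a change of -0.53 (SE 0.34, adjusted p = 0.309).

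The list of Wnt and R-spondin receptors and their liver targets held 3 genes called higher and 8 called lower of 28 tested, or 39.3%, against 21.2% of all genes. Lect2, Oat and the Wnt receptor gene Fzd8 rose by 1.61, 1.97 and 1.17, and Cyp1a2 fell by 1.48. The R-spondin receptor genes Lgr4 and Lgr5, chosen after their values were seen, fell by 0.66 and 0.73 (adjusted p = 0.00071 and 0.00423) and did not overlap between groups. Hepatocytes express these genes, so their values cannot be read as those of endothelium. Beside these, 1 of 21 Kupffer cell and macrophage markers rose (Cd14 by 0.91, adjusted p = 0.0274) and 0 fell. The Cd14 call was lost without Null 1, Null 2 or ATF3 4 (adjusted p from 0.0569 to 0.0716). The summed macrophage markers were 19783 to 27131 in Null and 21005 to 28054 in ATF3. Of 20 stellate cell and fibroblast markers 0 rose and 1 fell (Rgs5 by 0.51, adjusted p = 0.0410), with sums of 19589 to 24503 in Null and 18038 to 20592 in ATF3. The Rgs5 call held only without Null 1 or Null 2, and was otherwise lost (adjusted p from 0.0533 to 0.102). Of 8 cholangiocyte markers tested, 0 rose and 2 fell (sums of 1128 to 1903 in Null and 1107 to 1495 in ATF3). Of 14 hepatocyte markers 2 rose and 4 fell, and of 8 cell cycle genes 6 rose and 0 fell, with a median of 1.35. None of 5 lymphatic endothelial, 8 lymphocyte and 8 smooth muscle or erythroid markers passed. No gene of these lists was at 0 in all libraries. With the deposited TPM, Clec14a, Adam23, Bmpr2, Notch1, Tfr2, Smad4, Hamp, Lgr4, Lgr5 and Rgs5 changed sign. Of the genes named from these lists as called, Oat kept its call with the deposited TPM and the others lost it, among them Ctsl (adjusted p = 0.731), Cyp1a2 (0.635), Cd4 (0.387), Dll1 (0.301), Fzd8 (0.103) and Lect2 (0.0538), which were called in each of the 8 fits without 1 library. Nrp1 and Rgs5 also lost theirs without a filter (0.0561 and 0.0507), Nrp1 with rescaled TPM (0.0504) and Rgs5 with upper quartile scaling (0.0668). The part of these other cells in the values of the 34 genes was not tested.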

How the data were processed

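Liver RNA was sequenced from stranded total RNA libraries on a NextSeq, per the labels' protocols and the design text. Alignment with Bowtie2 to mm10 is named in the submitters' processing notes; the sources used here do not give the counter, the annotation or the use of strand. The authors deposited a signal per gene, estimated counts already scaled per library, and a table of TPM. The signal is not whole: 24.1% to 49.8% of values under 10 steps were multiples of the step within 0.02, so reads were not recovered. In the TPM, Mir6236 held 0.308% (Null 4) to 89.4% (Null 1) of a library.

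Genes reaching 10 in 4 or more libraries entered limma 3.58.1 (R 4.3.3): log2(signal + 1), a term for group, eBayes with trend, two-sided, Benjamini-Hochberg over 13301 genes, threshold 0.05. Adding 1 understates changes of low genes. The members and lists were chosen with earlier results of these data known. Named are all members, up to 4 genes of smallest p in each further list, and Hamp, Lgr4 and Lgr5, chosen after their values were seen; 1 gene that this rule names is not reported here. No replicate numbers pair the libraries. The fit was tested on simulated data in which 50 genes changed at each fold. It called 4% of changes of 1.25-fold, 44% of 1.5-fold and 66% of 2-fold, so it missed most small changes there. The simulated data gave 109 calls against 2819 here, so these shares do not carry over directly. Positions and exon overlaps come from GENCODE vM21, promoters from RefSeq (GRCm38.p6). Python 3.11.15 was used for tables. Alternatives covered scaling, filters, added values, variance, library weights, TPM and leaving out each library.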

Additional observations from a re-analysis of the deposited data

Results flagged for a closer look

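In 68 groups of 4 libraries (34 genes in Null and in ATF3), 9 held a library whose gap to its neighbour was above the 95% limit of Dixon's test. Over all tested genes, Null 4 was the highest Null library for 37.2% and the lowest for 33.8%. Chance flags about 1 in 20 independent groups, but the genes share 8 libraries, so this does not apply directly to the 9 flagged groups. Null 4 was the library apart in 5 of them, high in each: Stab2 at 4389 (others 3332 to 3497), Clec4g at 1474 (others 1041 to 1064), Egfl7 at 546 (others 381 to 398), Robo4 at 447 (others 345 to 358) and Nos3 at 105 (others 71.2 to 75.7). Null 1 was high for Cdh5 at 1428 (others 1203 to 1215) and for Kdr at 2980 (others 2564 to 2589). In ATF3, ATF3 3 was low for Esam at 209 (others 231 to 234), and ATF3 2 was low for Vwf at 300.3 (others 369 to 373). All values are normalized counts.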

How the results depend on the processing

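Over 18 alternatives, 0 endothelial genes were called higher in ATF3 in each. The number called lower was 2 in the reported fit, 0 without a filter, with upper quartile scaling or with the deposited TPM, 1 with robust eBayes, 4 with library weights, and 0 to 4 when 1 library was left out. It was 4 without Null 4, 1 without ATF3 2 and 0 without each of the other libraries. The number of genes called between ATF3 and Null was 516 with the deposited TPM (440 higher and 76 lower, against 1513 and 1306) and 4401 with library weights (2271 higher and 2130 lower). The TPM rescaled by median of ratios gave 2805 genes called, and 2 endothelial genes lower. The median change of the endothelial genes was -0.071 with the rescaled TPM and 0.717 with the deposited TPM. In the deposited TPM, Mir6236 held 89.4% of Null 1. Signs that turned belonged to genes not called under that alternative. With the deposited TPM these were Cdh5 0.85, Eng 0.66, Robo4 0.57, Aqp1 0.83, Kdr 0.76, Flt1 0.60, Tek 0.51, Tie1 0.58, Ptprb 0.64, Stab1 0.81, Stab2 0.77, Clec4g 0.88, Ehd3 0.90, Dnase1l3 0.64, Gpr182 0.82, F8 0.58, Vwf 0.36, Gata4 0.71, Sox18 0.33, Bmp6 0.44, Wnt2 0.27 and Rspo3 0.35, and outside the set Clec14a 0.40, Adam23 0.42, Bmpr2 0.50, Notch1 0.40, Tfr2 0.54, Smad4 0.44, Hamp 0.48, Lgr4 0.30, Lgr5 0.014 and Rgs5 0.39. Oit3 was at -0.00015 with rescaled TPM and -0.0014 with median of ratios, Clec4g and Ehd3 were at 0.054 and 0.086 with library weights, and Cdh5, Stab1 and Ehd3 at 0.016, 0.0077 and 0.022 with upper quartile scaling. Leaving out 1 library moved Pecam1 between -0.038 and 0.068, Cdh5 between -0.081 and 0.042, Esam between -0.069 and 0.17, Emcn between -0.00015 and 0.20, Egfl7 between -0.042 and 0.13, Flt4 between -0.024 and 0.11, Mrc1 between -0.027 and 0.085, Fcgr2b between -0.027 and 0.067, Clec4g between -0.12 and 0.049, Oit3 between -0.073 and 0.084, Ehd3 between -0.093 and 0.087, Vwf between -0.20 and 0.071 and Gata4 between -0.24 and 0.069. With no change of sign, it moved Sox18 between -0.56 and -0.20, Lyve1 between 0.0026 and 0.33, Nos3 between 0.050 and 0.32, Robo4 between -0.18 and -0.0061, Stab2 between -0.16 and -0.032, Bmp2 between 0.020 and 0.17, Bmp6 between -0.29 and -0.070, Wnt2 between -0.47 and -0.18, Wnt9b between 0.27 and 0.63, F8 between -0.38 and -0.16 and Hamp between -0.78 and -0.26. Gpr182, Flt1, Tie1, Stab1, Aqp1 and Kdr also moved by over 1.5 times, within -0.19 and -0.015. The causes were not tested. No paired analysis was possible because the labels give the groups no shared replicate numbers.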
